A study of Homo sapiens with 16 samples.

Results

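HEK293 cells labelled as carrying optimized receptors were treated with interferon omega (IFNw, 2 libraries) or with interferon lambda 3 (IFNL3, 2 libraries), and the RNA of these 4 libraries, of 16 in the series, is compared here. The libraries were taken by their genotype and treatment labels alone. Both ligands were given at 100 nM. The protocol gives an exposure of 15 min and the labels give a time of 24 hr, and the labels do not say how the 2 relate. Other libraries serve as background: untreated cells of the same genotype (2 libraries), the same genotype with H11, which the labels call a high-affinity form of IFNL3 (2 libraries), and cells with wild-type receptors treated with IFNw or IFNL3 (2 libraries each). All are HEK293, a transformed human embryonic kidney line grown in Free-style medium. The sources used here do not say how the receptors were optimized or whether the optimized cells are 1 clone. The series title places the comparison in the question of how the geometry between paired Janus kinases bears on gene expression under type I and type III interferons.

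IFNw is a type I interferon, which binds the receptor pair IFNAR1 and IFNAR2. IFNL3 is a type III interferon, which binds IFNLR1 (listed here under its older symbol IL28RA) together with IL10RB. Both receptors carry the kinases JAK1 and TYK2, which phosphorylate STAT proteins. With IRF9 these form the factor ISGF3, which binds the interferon-stimulated response element (ISRE) and switches on antiviral genes, and STAT dimers bind a second element, GAS.

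Read totals of the compared libraries were 9393839 and 9822088 with IFNw and 9782937 and 8761758 with IFNL3, within a range of 5331203 to 9822088 over the series. Levels are given as CPM, the reads of a gene scaled to a common library total with TMM size factors, and levels of different genes are not compared because the targets differ. Library pairs of each group differed beyond sampling noise, and the untreated optimized pair was the least alike (Pearson's r across genes 0.965 on log CPM, against 0.983 with IFNw and 0.984 with IFNL3). The labels call the replicates biological without naming separate cultures, so p-values measure the spread between libraries of a group. That spread is estimated over all 16 libraries, the untreated optimized pair among them. Of the lists of cell type markers, 10 of 20 kidney and HEK293 genes were measurable, with a summed level of 464 to 502 CPM with IFNw and 561 to 578 CPM with IFNL3. WT1 lay at 5.89 to 11.2 CPM in the compared libraries, while PAX8 stayed at or below 0.204 CPM and PAX2 at 1.07 to 2.34. Of 14 blood markers 1 (CD68) passed the low-count filter, of 12 fibroblast and endothelial markers 2 did (COL1A1 and THY1), and of 10 hepatocyte markers and 10 interferon ligand genes none did.

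Both ligands induced the antiviral genes strongly in these cells, and the gap between the ligands was small beside that induction. ISG15, the ubiquitin-like modifier, lay at 17.5 and 12.96 CPM in untreated cells, at 7266 and 7770 CPM with IFNw and at 4375 and 4370 CPM with IFNL3. IFNL3 libraries therefore reached 58.2% of the mean IFNw level, and no library of one ligand overlapped the other. Across the genome 12704 genes were tested with edgeR's quasi-likelihood test, and a gene is called when its Benjamini-Hochberg adjusted p is below 0.05. With IFNw 1459 genes were higher than with IFNL3 (11.5% of those tested) and 963 were lower (7.58%). The count of called genes in each list below is to be read beside these shares. The median log2 fold change over all tested genes was -0.01. A difference of at least 2-fold was reached by 284 called genes, 201 of them higher and 83 lower with IFNw. Of 9990 genes at 5 CPM or more with either ligand, 7593 had a 95% interval of the fold change that lay wholly within 2-fold. The CPM of the 4 libraries did not overlap between ligands for 60.8% of the genes tested. Leaving out 1 of the 4 libraries left 845 to 1086 genes higher and 272 to 441 lower. In RNA pooled from many cells, fewer responding cells and less RNA per cell cannot be told apart.

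**Figure D1:**
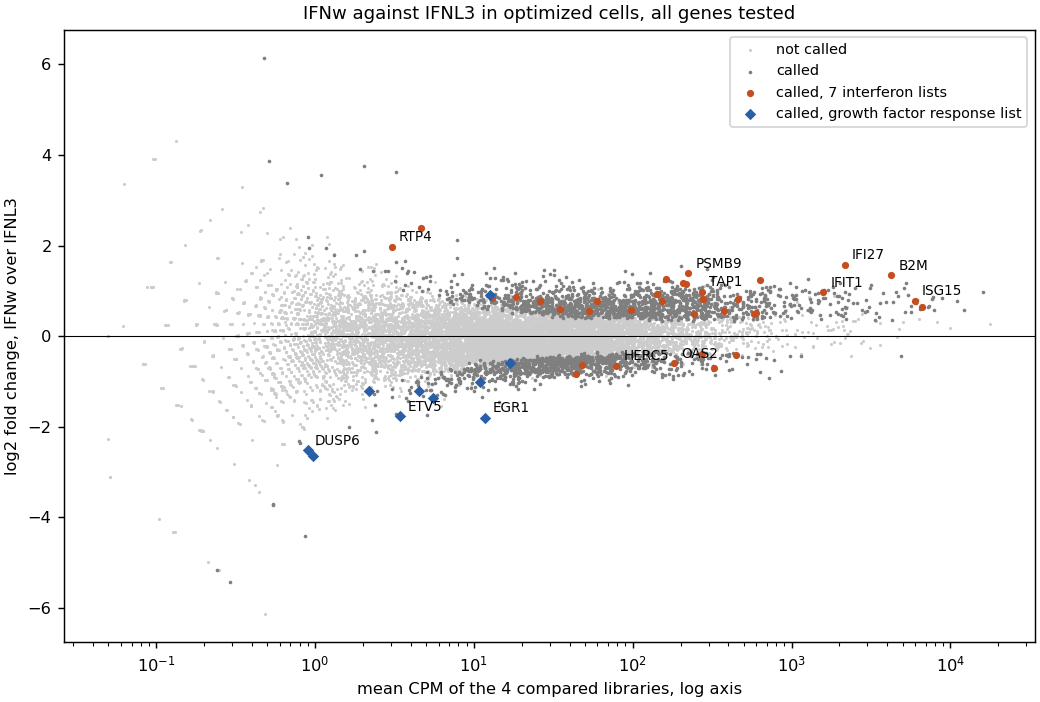
Log2 fold change of IFNw over IFNL3 in optimized cells (vertical axis) against the mean CPM of the 4 compared libraries (horizontal, log axis) for the 12704 genes tested. Orange points are called members of 7 interferon lists, with B2M, IFI27 and PSMB9 above 1 and OAS2 and HERC5 below 0, and blue diamonds are called growth factor response genes, 9 of 10 of which lie below 0.

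The difference between the ligands ran with transcript length. Deviations of log CPM from the gene mean had Spearman's rho of -0.435 and -0.448 with transcript length across genes in the IFNw libraries, against 0.0911 and 0.0482 in the IFNL3 libraries. In the same genotype rho was 0.154 and 0.0835 in untreated libraries and -0.417 and -0.427 in H11 libraries. CPM values are without the offset described below, so levels of a gene set side by side between treatments carry this trend. The points of each rho are genes of 1 library and are not replicates. Genes whose longest transcript was under 1000 bases had a median log2 fold change of 0.63, and 47.2% of these 598 genes were higher with IFNw. Genes of 6000 bases or more had a median of -0.34, and 19.3% of these 2195 were lower. When the trend of each library with length was removed by an offset (a spline on log length), 747 genes were higher with IFNw (5.88%) and 442 lower (3.48%), of which 640 and 307 had been called in the same direction without it. What sets the trend was not tested. Offset values are given for only some of the called genes, and a gene without one can also change in size. With the offset PSMB10 went from 1.18 to 0.79, PSME2 from 1.16 to 0.81, HLA-B from 1.24 to 0.93 and IFI44 from 0.83 to 0.56. TRIM21 went from 0.83 to 0.61, and IFI44L rose from 0.60 to 0.83. In the IFNw libraries the 50 most abundant genes took 28.7% and 28.4% of the reads, against 24.2% and 23.7% with IFNL3, and the TMM factors were 0.795 and 0.817 against 1.00 and 1.02.

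**Figure D2:**
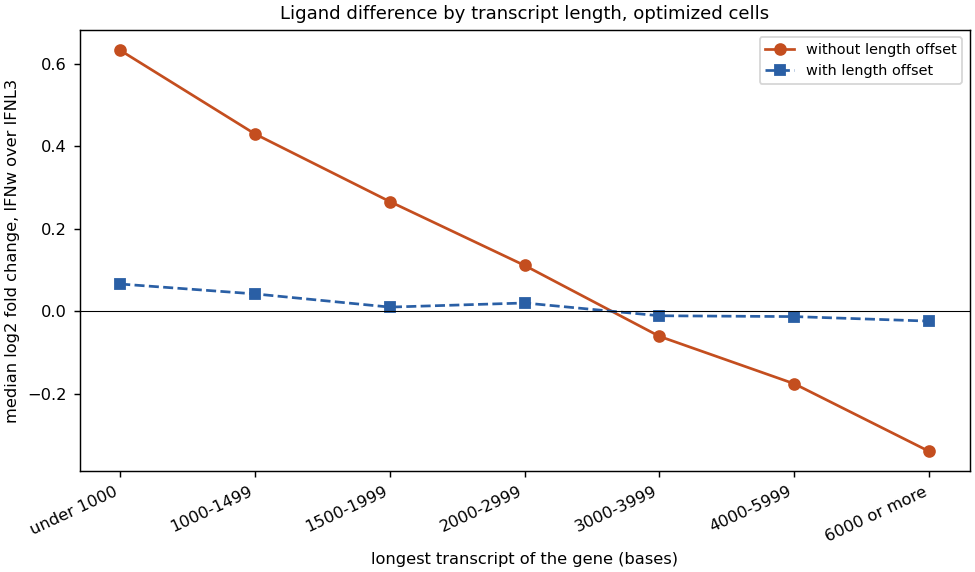
Median log2 fold change of IFNw over IFNL3 (vertical axis) in 7 bins of longest transcript length in bases (horizontal axis), without the length offset (orange circles) and with it (blue squares). The median falls from 0.63 under 1000 bases to -0.34 at 6000 bases or more, and with the offset it stays near 0 in each bin.

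Of the receptor chains and kinases, JAK1 alone was called. IFNAR1 lay at 11.8 and 11.5 CPM with IFNw and 12.1 and 12.4 with IFNL3. The lambda receptor chain IL28RA lay at 1.74 and 2.12 CPM with IFNw and 3.06 and 2.90 with IFNL3, a log2 fold change of -0.62 ± 0.45 (SE) that was not called (adjusted p = 0.37). In untreated cells IL28RA lay at 3.16 and 2.28 CPM under the optimized label and at 2.50 and 2.49 under the wild-type label, and these libraries overlapped. JAK1, the kinase bound by IFNAR2 and IFNLR1, lay at 7.10 and 7.23 CPM with IFNw and 18.3 and 10.7 with IFNL3. Its log2 fold change was -1.02 ± 0.28 (adjusted p = 0.018), and 1 IFNL3 library was well above the other. JAK1 was lost as a call without IFNL3 replicate 1 (-0.55, adjusted p = 0.30), without either IFNw library (-0.97 and -1.01, both 0.10) and with the length offset (-0.84, 0.071). Of the 10 receptor and kinase genes tested, 0 were higher and 1 was lower, against 11.5% and 7.58% of all genes. IFNAR2, IL10RB, IFNGR2 and TYK2 had log2 fold changes between -0.24 and 0.07.

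Of the signal transducers, IRF9 was higher with IFNw, and STAT2 and IRF7 were not called. IRF9, the DNA-binding subunit of ISGF3, rose from 3.67 and 4.38 CPM untreated to 113 and 120 with IFNw and to 83.6 and 72.6 with IFNL3. Its IFNw libraries lay above both IFNL3 libraries, by a log2 fold change of 0.57 ± 0.12 (adjusted p = 0.0038). IRF9 lost its call with the length offset (0.34, adjusted p = 0.090) and without IFNL3 replicate 2 (0.47, 0.061). STAT2, another ISGF3 subunit, had 84.2 and 80.9 CPM with IFNw and 94.0 and 103 with IFNL3, and it was not called (-0.25 ± 0.13, adjusted p = 0.18). IRF7, which amplifies interferon production, had 239 and 357 against 263 and 294 CPM, and its libraries overlapped. IRF1, an interferon-induced transcription factor, had 10.6 and 8.73 against 7.94 and 7.81 CPM and was not called (0.29 ± 0.20, adjusted p = 0.35). Of 14 genes of this list 1 was higher (IRF9) and 2 were lower (among them the corepressor IRF2BP2). These counts stand beside 11.5% of all genes higher and 7.58% lower. The list median was 0.13, and 0 were called with the offset. IRF2BP2 (-0.63 ± 0.17) lost its call with the offset (-0.48) and without IFNw replicate 2 or either IFNL3 library (-0.63 to -0.49).

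The abundant effectors IFI27, IFI6 and ISG15 were higher with IFNw. IFI27, a small mitochondrial and nuclear-envelope protein, lay below 1 CPM untreated, at 3179 and 3278 CPM with IFNw and at 1057 and 1108 with IFNL3. It was 2.98-fold higher with IFNw (log2 1.58 ± 0.16, adjusted p = 3.4e-05), and its call held without each library and with the offset (1.04, adjusted p = 6.3e-04). IFI6, which protects cells from flavivirus replication, had 8270 and 7981 CPM with IFNw against 5157 and 5270 with IFNL3. The libraries of both genes were apart by far more than replicates differed. The log2 fold change was 0.64 ± 0.11 for IFI6 (adjusted p = 7.4e-04) and 0.78 ± 0.13 for ISG15 (adjusted p = 5.0e-04). Both fell short of a call with the length offset, at 0.14 (0.47) and 0.26 (0.21).

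The IFIT genes, a family with members that bind viral RNA lacking the host cap marks, did not move together. IFIT1 had 6.72 and 7.18 CPM untreated, 2190 and 1986 with IFNw and 1120 and 1019 with IFNL3, a log2 fold change of 0.97 ± 0.12 (adjusted p = 7.0e-05) that was 1.12 with the offset. IFIT5 had 72.3 and 79.0 against 44.7 and 43.3 CPM (0.78 ± 0.15, adjusted p = 0.0015). IFIT2, with 18.9 and 26.3 against 20.7 and 21.3 CPM, overlapped between the ligands, and IFIT3 had 89.7 and 82.3 against 71.1 and 73.1 CPM without a call (0.25 ± 0.13, adjusted p = 0.19). The membrane proteins IFITM1 and IFITM3, which block viral entry, were called at 0.51 ± 0.13 and 0.49 ± 0.15, and lay at 0.01 and -0.02 with the offset. IFITM1 lost its call without IFNL3 replicate 1 or IFNw replicate 2 (0.47 and 0.46), and IFITM3 without either of these or IFNL3 replicate 2 (0.43 to 0.59). These paralogs share much of their sequence, so their reads may be split. Of 8 tested genes of both families 4 were higher and 0 lower, against 11.5% and 7.58% of all genes. Their median was 0.42, and 0.09 with the offset (2 higher). Without IFNL3 replicate 1 or IFNw replicate 2, 2 were higher.

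**Figure D3:**
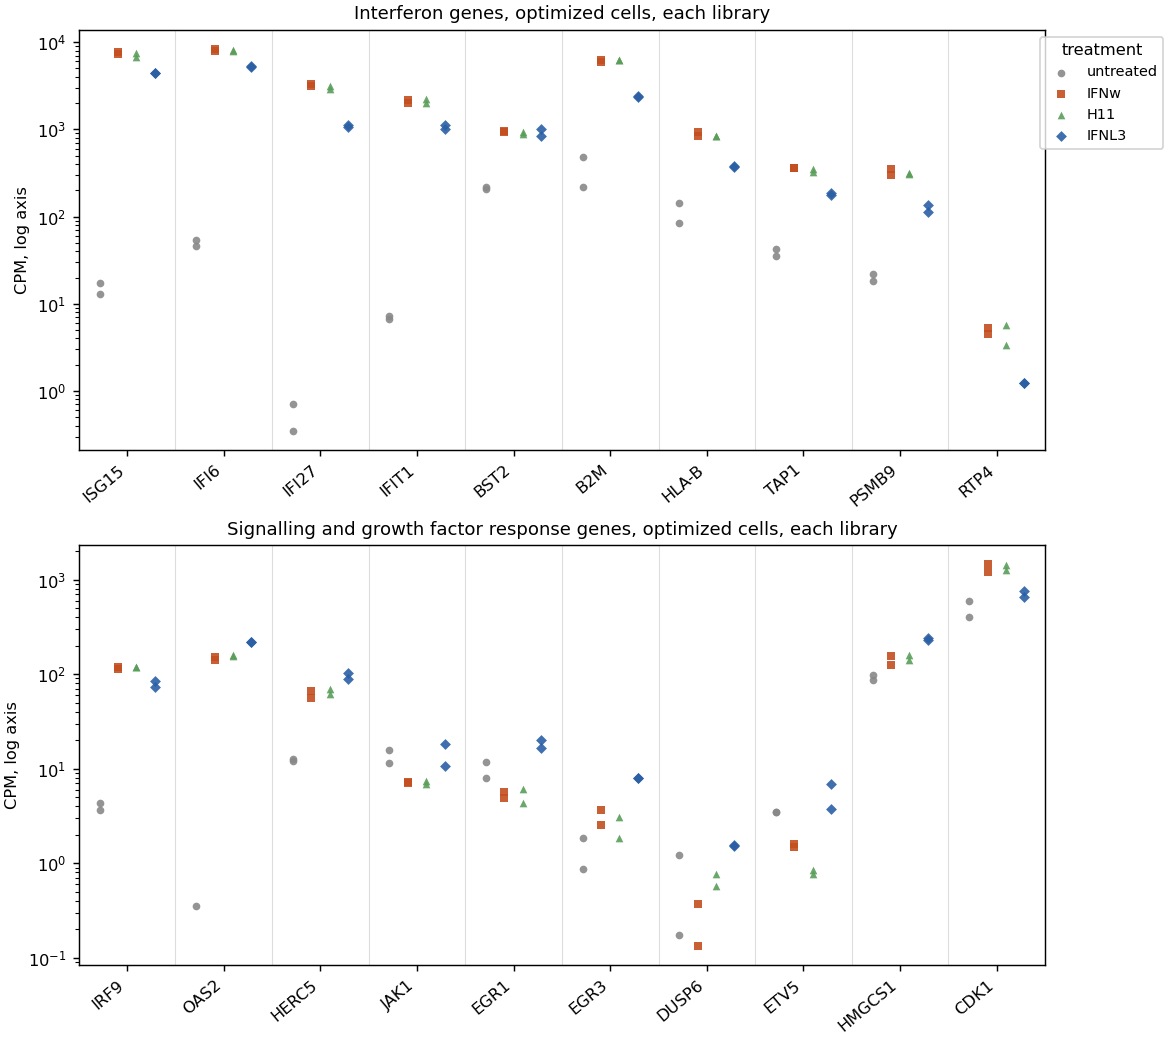
CPM (log axis) in each of 2 libraries per treatment of optimized cells, for 10 interferon genes (upper panel) and 10 signalling, growth factor response and other genes (lower panel). IFNw squares lie above IFNL3 diamonds for ISG15, IFI27 and B2M, overlap them for BST2 and lie below them for OAS2 and EGR1, and libraries at 0 CPM (RTP4 untreated, 1 OAS2 untreated) are not drawn.

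Stretches around an ISRE core are shown for 4 genes higher with IFNw, 2 genes higher with IFNL3 and 1 without a call, so that the letters can be set beside the levels, and each gene was picked because its promoter holds a core. They are from the RefSeq promoter table on GRCh38.p14, which is not the hg19 build of the counts, and run 5′ to 3′ on the strand of the gene. They are ISG15 at chr1:1013359-1013424 (plus strand), IFIT1 at chr10:89392495-89392554 (plus), GBP1 at chr1:89065301-89065360 (minus), B2M at chr15:44711348-44711413 (plus), HERC5 at chr4:88457020-88457079 (plus), DDX60L at chr4:168480508-168480567 (minus) and BST2 at chr19:17405720-17405785 (minus). All lie upstream of the transcription start. Capitals mark the core nearest the start, GAAANNGAAA or the same letters read on the opposite strand, joined where 2 cores overlap.
ISG15: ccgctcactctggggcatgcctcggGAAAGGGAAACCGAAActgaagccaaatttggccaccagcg
IFIT1: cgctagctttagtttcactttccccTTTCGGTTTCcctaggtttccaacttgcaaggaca
GBP1: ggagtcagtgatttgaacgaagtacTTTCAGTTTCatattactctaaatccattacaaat
B2M: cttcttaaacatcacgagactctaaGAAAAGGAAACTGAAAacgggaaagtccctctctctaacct
HERC5: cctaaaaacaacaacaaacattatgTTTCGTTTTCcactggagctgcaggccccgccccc
DDX60L: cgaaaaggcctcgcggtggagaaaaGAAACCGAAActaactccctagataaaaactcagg
BST2: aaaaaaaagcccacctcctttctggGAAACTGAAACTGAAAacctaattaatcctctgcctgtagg

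The core letters, searched on both strands from 250 bases before to 50 after each start, occurred in 3.57% of all 35116 promoters of the table. Counted by gene, with a match in any promoter of the gene, the share was 4.38%, and the shares below are by gene. Among interferon genes that were higher than untreated with either ligand, 49 of the 81 with a promoter in the table had a core. By call, these were 19 of 27 genes higher with IFNw, 4 of 5 lower with IFNw and 26 of 49 not called. Over the whole genome the share was 4.39% of genes higher with IFNw, 4.85% of genes lower and 3.91% of all tested genes with a promoter. The GAS letters TTCNNNGAA occurred in 8 of the 27 interferon genes higher with IFNw, in 21 of the 81 and in 8.04% of tested genes. These are matches of letters and carry no measure of binding.

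Enzymes that sense or degrade viral RNA were called in both directions. OAS1, which makes the 2-5A signal that activates RNase L, had 457 and 437 CPM with IFNw against 320 and 288 with IFNL3 (0.55 ± 0.16, adjusted p = 0.023). OAS2, its paralog, had 150 and 140 against 221 and 218 CPM (-0.60 ± 0.17, adjusted p = 0.023), so each lay apart from the other ligand but in opposite directions. OAS3 was not called (-0.21 ± 0.16, adjusted p = 0.39). ADAR, the RNA-editing enzyme, had 277 and 218 CPM with IFNw and 414 and 390 with IFNL3 (-0.70 ± 0.17, adjusted p = 0.0092). OASL was higher with IFNw (0.85 ± 0.25, adjusted p = 0.025), and EIF2AK2, the kinase PKR that stops translation, lower (-0.39 ± 0.13, adjusted p = 0.0495). Of 13 genes 2 were higher and 3 lower, against 11.5% and 7.58% of all genes. The list median was -0.27 and turned to 0.07 with the length offset. With that offset OAS1 (0.45), OAS2 (-0.44), ADAR (-0.43) and EIF2AK2 (-0.04) lost their calls, and OASL kept it (0.87). The calls on OAS1, OAS2 and EIF2AK2 were also lost without any 1 of the 4 libraries (0.48 to 0.66, -0.61 to -0.52 and -0.43 to -0.32). OASL was lost without IFNw replicate 2 or either IFNL3 library (0.59 to 0.98), and ADAR without IFNL3 replicate 1 or IFNw replicate 2 (-0.62 and -0.51).

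The sensors RIG-I (listed as DDX58) and MDA5 (IFIH1) were not called, and 2 of 10 sensing genes were higher with IFNw: DHX58, the helicase LGP2 (21.96 and 15.5 against 10.6 and 11.4 CPM; 0.77 ± 0.22), and IFI16, a DNA sensor (36.2 and 29.8 against 19.1 and 19.1 CPM; 0.79 ± 0.21). Both were lost without IFNw replicate 1 (0.53 and 0.68) or either IFNL3 library, and DHX58 with the offset (adjusted p = 0.061). The list median was -0.05 and 0.11 with the offset, and over all genes 11.5% were higher with IFNw. DDX60L, a relative of the helicase DDX60, was lower with IFNw (28.8 and 34.2 against 53.5 and 59.9 CPM; -0.85 ± 0.22, adjusted p = 0.011). Its call was not kept with the offset (-0.57) or without IFNw replicate 1 (-0.69) or IFNL3 replicate 2 (-0.76).

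The largest called fold among interferon genes was at a low level. GBP1, a guanylate-binding protein that coats intracellular pathogens, had 0 reads in untreated cells, 5.49 and 6.61 CPM with IFNw, and 0.917 and 0 CPM with IFNL3. In reads this is 94 against 9, a log2 fold change of 3.63 ± 0.72 (adjusted p = 0.0029). GBP1 stayed called with the offset and without each library, but its fitted value was 2.71 without IFNL3 replicate 2 and 8.79 without IFNL3 replicate 1, where the remaining IFNL3 library had 0 reads. RTP4, a chaperone, also had 0 reads untreated and then 5.22 and 4.49 against 1.22 and 1.23 CPM (1.97 ± 0.57). Both RTP4 IFNw libraries were above both IFNL3 libraries, but its call was lost without any 1 of the 4 (adjusted p 0.070 to 0.11) and with the offset (1.67, 0.078). RSAD2, the enzyme viperin that makes a chain-terminating nucleotide, had 69.1 and 69.3 against 47.2 and 39.5 CPM (0.67 ± 0.17, adjusted p = 0.013), and lost its call without IFNw replicate 2 or IFNL3 replicate 2 (0.70 and 0.55). BST2, the tether that holds virions at the membrane, lay at 922 and 947 CPM with IFNw and 840 and 1012 with IFNL3 and was not called (0.01 ± 0.13, 95% interval -0.27 to 0.29). With the offset BST2 was called lower (-0.43). MX1, a dynamin-like antiviral GTPase, stayed at or below 1.47 CPM in these libraries. CXCL10, an interferon-induced chemokine, had 1.87 and 1.25 against 2.55 and 2.79 CPM and was not called (adjusted p = 0.45).

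In the list of IFI genes and other small effectors 10 of 29 were higher (against 11.5% of all genes) and 1 (DDX60L) lower, with a median of 0.12 (0.15 with the offset, 4 higher). Without a library 4 to 6 were higher, and the median was 0.27 without IFNw replicate 1, 0.26 without IFNw replicate 2 and 0.41 without IFNL3 replicate 1. IFI44 had 381 and 323 against 198 and 198 CPM (0.83 ± 0.14, adjusted p = 8.9e-04). IFI44L had 42.2 and 41.5 against 26.4 and 28.9 CPM (0.60 ± 0.16, adjusted p = 0.019), and IFI35, a partner of NMI, had 192 and 195 against 118 and 106 (0.79 ± 0.15, adjusted p = 0.0017). None of the 3 overlapped between ligands. IFI44 kept its call in each fit that left out a library. IFI44L lost it without any 1 of the 4 (0.57 to 0.67), and IFI35 lost it with the offset (0.40, adjusted p = 0.11). TRIM21, a ubiquitin ligase and antibody receptor of the cytosol, was the 1 called gene of 8 TRIM ligases (51.8 and 63.3 against 36.2 and 28.7 CPM; 0.83 ± 0.16, adjusted p = 0.0018). Of 8 genes of the PARP list, PARP10 was higher (0.46 ± 0.15) and DTX3L, the ubiquitin ligase that pairs with PARP9, lower (-0.46 ± 0.15), and both calls were lost without any 1 of the 4 libraries (0.45 to 0.53 and -0.49 to -0.38). With the offset DTX3L was not called (-0.22, adjusted p = 0.41).

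ISG15 and the enzymes that attach and remove it did not share a direction. The activating enzyme UBA7 had 17.3 and 21.2 CPM with IFNw against 10.7 and 14.8 (0.59 ± 0.24, adjusted p = 0.089), and the conjugating enzyme UBE2L6 had 99.6 and 115 against 78.1 and 83.6 (0.41 ± 0.14, adjusted p = 0.053). Neither was called, and UBE2L6 lay at 0.11 with the offset. The ligase HERC5 was higher with IFNL3, at 103 and 88.8 CPM against 65.6 and 56.3 with IFNw (-0.65 ± 0.14, adjusted p = 0.0034; -0.60 and still called with the offset). HERC5 lost its call without IFNL3 replicate 1 (-0.51, adjusted p = 0.062) or IFNw replicate 2 (-0.52, 0.069). HERC6 was not called (-0.35 ± 0.15, adjusted p = 0.12). USP18, the protease that removes ISG15 and blocks IFNAR2 signalling, had 146 and 170 CPM with IFNw and 138 and 148 with IFNL3 and was not called (0.14 ± 0.13, adjusted p = 0.49).

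Of 13 tested negative regulators (beside 11.5% of all genes higher and 7.58% lower), 1 was higher with IFNw (ISG15, which stabilizes USP18). Another 4 were lower (PTPN11, PIAS1, FOXO3 and PIAS4), and the list median was -0.40 (-0.31 with the offset). Leaving out 1 library left 1 to 3 of them lower. PTPN11, the phosphatase SHP2, had 66.3 and 59.3 CPM with IFNw against 116 and 89.9 (-0.72 ± 0.16, adjusted p = 0.0052). PIAS1, a SUMO ligase that inhibits STAT binding to DNA, had 63.3 and 60.6 against 91.8 and 99.5 (-0.63 ± 0.14, adjusted p = 0.0040). Untreated libraries lay at 124 and 86.5 CPM for PTPN11 and at 85.8 and 97.0 for PIAS1, above both IFNw libraries of each gene. With the offset PTPN11 (-0.47, adjusted p = 0.070) and PIAS1 (-0.31, 0.17) and FOXO3 (-0.36, 0.24) were not called, and PIAS4 was (-0.57, 0.0495). PTPN11 also lost its call without IFNL3 replicate 1 (-0.49) or IFNw replicate 2 (-0.61), and PIAS1 without IFNw replicate 2 (-0.56, adjusted p = 0.052). FOXO3, a factor that represses IRF7 (-0.65 ± 0.18), lost it without replicate 2 of either ligand (-0.48 and -0.52), and PIAS4 (-0.58 ± 0.18) without IFNw replicate 1 or either IFNL3 library (-0.57 to -0.39). SOCS2, SOCS3 and CISH, inhibitors that JAK signalling induces, stayed below 6 CPM with either ligand and were not called.

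The list of MHC class I chains and regulators had the largest median difference between the ligands among the interferon lists. B2M, the light chain of every class I molecule, had 477 and 218 CPM untreated, 5975 and 6175 with IFNw and 2388 and 2376 with IFNL3. IFNL3 reached 39.2% of the IFNw level, and the log2 fold change was 1.35 ± 0.22 (adjusted p = 4.2e-04; 1.09 with the offset). The heavy chain HLA-B had 840 and 930 against 367 and 383 CPM (1.24 ± 0.17, adjusted p = 1.3e-04). HLA-E, a ligand of natural killer receptors, had 191 and 185 against 90.6 and 106 CPM (0.94 ± 0.13). No IFNw library of these 3 genes overlapped an IFNL3 library, and all 3 stayed called with the offset and without each library. Class I heavy chains are near-identical in places, so reads may be split between them. Of 8 tested chains and regulators 5 were higher and 0 lower, against 11.5% and 7.58% of all genes. Their median was 0.87 (0.75 with the offset). MICA was also called (0.56 ± 0.16), and lost its call without either IFNw library or IFNL3 replicate 1 (0.45 to 0.62) and with the offset (0.43, adjusted p = 0.094). NLRC5, the transactivator of class I genes, had 36.7 and 30.7 against 26.99 and 25.9 CPM and was not called (0.35 ± 0.17, adjusted p = 0.18), but was with the offset (0.62, 0.033).

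Of 14 genes that cut and load the peptides, 5 were called higher with IFNw (against 11.5% of all genes) and 9 were not called. PSMB9, an immunoproteasome subunit, had 18.2 and 21.9 CPM untreated, 296 and 351 with IFNw and 114 and 134 with IFNL3 (1.39 ± 0.16, adjusted p = 4.4e-05; 0.87 with the offset). PSMB10, another such subunit, had 313 and 266 against 129 and 126 CPM (1.18 ± 0.12), and PSME2, part of the proteasome activator, had 274 and 324 against 130 and 138 (1.16 ± 0.12). TAP1, the peptide transporter of the endoplasmic reticulum, had 362 and 362 against 178 and 188 CPM (0.98 ± 0.11, adjusted p = 4.3e-05; 0.97 with the offset). All of these, and PSMB8 (0.82 ± 0.12; 0.46 with the offset), were apart between the ligands and called without each library and with the offset. The list median was 0.60 (0.53 with the offset). Among those not called, the log2 fold change was -0.49 for the chaperone CANX (adjusted p = 0.074), -0.32 for TAPBP, the bridge between TAP1 and class I chains, and -0.13 for the peptidase ERAP1. The constitutive proteasome list, by comparison, had 14 of 32 higher and 2 lower with a median of 0.33, and 0.09 with the offset (6 higher).

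**Figure D4:**
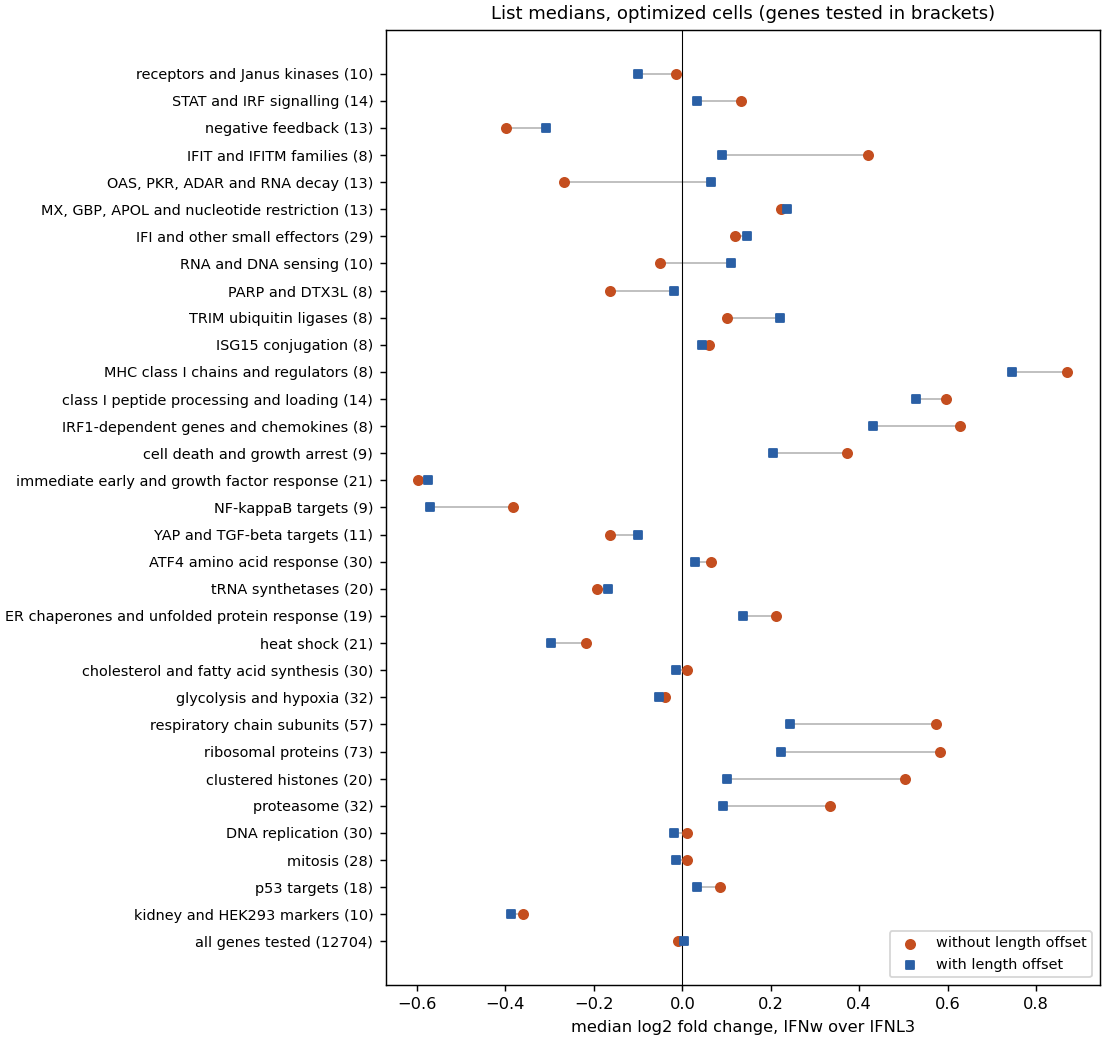
Median log2 fold change of IFNw over IFNL3 (horizontal axis) for each gene list with 8 or more genes tested and for all genes tested, without the length offset (orange circles) and with it (blue squares). The class I lists sit at 0.87 and 0.60 and the growth factor response list at -0.60 with little shift, while the ribosomal protein list moves from 0.58 to 0.22.

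Pooled over 13 interferon lists, 106 genes were called higher than untreated cells with either ligand, 103 with IFNw and 93 with IFNL3, the 2 comparisons sharing the untreated libraries. Over all genes, 17.5% were higher and 15.9% lower than untreated with IFNw, and 7.26% and 6.05% with IFNL3. Of these genes 13 were called with IFNw only and 3 with IFNL3 only, so the selection favours genes higher with IFNw. Between the ligands, 33 of the 106 were higher with IFNw (against 11.5% of all genes) and 7 were lower (against 7.58%). The other 66 were not called, and the median log2 fold change was 0.29. With the offset 22 were higher and 2 lower, with a median of 0.20. Without that selection, the 13 lists held 142 tested genes, of which 33 were higher and 12 lower (median 0.14). With the offset 22 of the 142 were higher and 3 lower (median 0.12). Of the 106, 10 were at least 2-fold higher with IFNw and 0 at least 2-fold lower, and 62 had a 95% interval within 2-fold. The 32 with transcripts under 2000 bases had 20 higher, 0 lower and a median of 0.80 (0.43 with the offset, 10 higher and 1 lower). The 32 with transcripts of 4000 bases or more had 3 higher, 6 lower and a median of -0.23 (-0.01 with the offset, 5 higher and 0 lower).

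Of 21 early growth factor response genes 9 were called lower with IFNw than with IFNL3 (against 7.58% of all genes), 1 higher and 11 in neither direction. These are genes that ERK signalling and serum response factor switch on, and feedback inhibitors of the same pathway. EGR1, a zinc finger factor, had 11.7 and 7.88 CPM untreated, 5.62 and 4.86 with IFNw and 16.6 and 20.1 with IFNL3. IFNw libraries were the lowest of the 3 groups and IFNL3 libraries the highest, and the ligands differed by a log2 fold change of -1.80 ± 0.35 (adjusted p = 0.0020; -1.80 with the offset). EGR1 kept its call without each library. ETV5, an ETS factor, had 1.61 and 1.496 against 3.77 and 6.92 CPM (-1.77 ± 0.42, adjusted p = 0.0071), and EGR3 had 2.54 and 3.61 against 7.94 and 8.03 (-1.37 ± 0.35, adjusted p = 0.011). Both stayed called with the offset, but ETV5 lost its call without replicate 2 of either ligand (-1.69 and -1.27), and EGR3 without IFNw replicate 1 or either IFNL3 library (-1.36 to -1.10). FOS, with 4 reads against 32, and DUSP6, an ERK phosphatase with 4 reads against 29, were called on few reads (adjusted p = 0.026 and 0.024). FOS lost its call without either IFNw library or IFNL3 replicate 1 (-2.66 to -1.87), and DUSP6 without any 1 of the 4 (-3.37 to -1.97) and with the offset (adjusted p = 0.053). The list median was -0.60 (-0.58 with the offset, 6 lower and 0 higher). The 9 lower calls fell to 2 or 3 in each fit without a library and to 2 with DESeq2's Wald test. IER3, a regulator of cell survival, was the gene called higher (0.90 ± 0.21). IER3 lost its call without replicate 2 of either ligand (0.80 and 0.79) and with the offset (0.54). JUNB, DUSP4 and KLF6 had log2 fold changes of 0.09, 0.04 and 0.30 and were not called. CCL20, a chemokine of the NF-kappaB list, had 1 read over both IFNw libraries and 31 over both IFNL3 libraries, and 0 untreated.

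Ribosomal protein, respiratory chain and clustered histone genes, most of them short, were often higher with IFNw. Of 73 ribosomal protein genes 46 were higher (against 11.5% of all genes) and 0 lower (median 0.58). Without IFNL3 replicate 2, 21 were higher, and with the offset 14 were higher and 1 lower (median 0.22). RPS15A, for one, had 2101 and 2492 CPM untreated, 4273 and 4171 with IFNw and 2100 and 1957 with IFNL3, so the IFNL3 libraries lay at the untreated level (1.06 ± 0.11, adjusted p = 3.4e-05; 0.91 with the offset). Of 57 respiratory chain subunits 33 were higher (median 0.57; 14 higher, 3 lower and a median of 0.24 with the offset). COX7C, a subunit of cytochrome oxidase, had 1809 and 1791 against 793 and 700 CPM (1.27 ± 0.12; 0.97 with the offset). Of 20 clustered histone genes 14 were higher (median 0.50; 4 and 0.10 with the offset), and 8 without IFNL3 replicate 1 and 9 without IFNL3 replicate 2. Replication-dependent histone RNAs mostly lack the long poly(A) tail of other messages, and HIST1H4C had 4765 and 5074 against 2530 and 2588 CPM (0.94 ± 0.13; 0.32 and not called with the offset). The noncoding RNA RMRP had 21746 and 20735 against 11085 and 10393 CPM. With the offset RMRP went from 0.98 to 0.30 (adjusted p = 0.11) and was not called.

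In cholesterol and fatty acid synthesis 3 of 30 were higher and 4 lower, and 1 and 2 with the offset, against 11.5% and 7.58% of all genes tested. IDI1, which isomerizes the isoprenoid unit, was higher with IFNw (413 and 431 against 254 and 262 CPM; 0.71 ± 0.11, adjusted p = 2.9e-04), and HMGCS1, which acts upstream of it, was lower (124 and 154 against 228 and 242; -0.75 ± 0.15, adjusted p = 0.0018). Both calls held with the offset and without each library. ATF4, the regulator of the amino acid response, had 889 and 816 against 503 and 466 CPM (0.82 ± 0.13, adjusted p = 3.9e-04), and untreated libraries at 987 and 753 enclosed the IFNw libraries. Of 30 genes of the ATF4 list 3 were higher and 2 lower, with a median of 0.07. Its median was below 0 without IFNw replicate 1 (-0.05) or IFNL3 replicate 2 (-0.09). Of 20 tRNA synthetases 0 were higher and 4 lower (1 to 3 lower when 1 library was left out), among them FARSB (30.5 and 27.4 against 49.7 and 45.4 CPM; -0.72 ± 0.13, adjusted p = 0.0014). Of 19 endoplasmic reticulum chaperone and stress genes 7 were higher (against 11.5% of all genes) and 1 lower. This fell to 2 higher with the offset and with only the 8 optimized libraries, and to 3 without IFNL3 replicate 1, IFNw replicate 2 or IFNL3 replicate 2. PDIA4, a disulfide isomerase, had 86.1 and 89.99 against 50.6 and 49.4 CPM (0.82 ± 0.15; 0.79 with the offset).

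Among cell cycle genes, 3 of 30 DNA replication genes and 3 of 28 mitosis genes were called in each direction, which is near the shares of all genes tested (11.5% higher and 7.58% lower). Leaving out 1 library left 0 or 1 DNA replication gene higher. CDK1, the mitotic kinase, had 590 and 402 CPM untreated, 1445 and 1193 with IFNw and 757 and 655 with IFNL3 (0.90 ± 0.15, adjusted p = 7.3e-04; 0.70 with the offset). MAD2L1, a spindle checkpoint protein, had 550 and 570 against 289 and 312 CPM (0.90 ± 0.12; 1.11 with the offset). The replicative helicase subunit MCM6 was lower, at 193 and 186 against 302 and 268 CPM (-0.59 ± 0.12, adjusted p = 0.0019). These 3 calls held without each library.

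Outside the lists, the largest folds at 5 CPM or more included EFNA1, an ephrin ligand (11.7 and 12.6 against 4.18 and 3.12 CPM; 1.72 ± 0.32), CYBA, a subunit of NADPH oxidases (135 and 125 against 61.01 and 34.7; 1.44 ± 0.26), and MRPS18C, a mitochondrial ribosomal protein (431 and 429 against 144 and 166; 1.47 ± 0.17, adjusted p = 4.0e-05). All 3 stayed called with the offset and without each library. Among genes lower with IFNw, TMEM131 (7.37 and 8.10 against 23.9 and 18.4 CPM; -1.45 ± 0.25) and N4BP2 (5.49 and 7.23 against 13.1 and 19.3; -1.34 ± 0.23) did so too. The ephrin EFNB2 was lower (-1.31 ± 0.30), and lost its call without IFNw replicate 1 (-1.16, adjusted p = 0.063).

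The gap between the ligands was smaller with optimized receptors than with wild-type receptors for most interferon genes. In wild-type cells 3290 genes were higher with IFNw than with IFNL3 (25.9%) and 3458 lower (27.2%). The test of the difference between the genotypes' contrasts called 815 genes higher in optimized cells (6.42%) and 1262 lower (9.93%). Among the 106 interferon genes 36 were called lower in that test and 11 higher. The log2 fold change was larger in size in wild-type cells for 86 of them, and for 110 of all 142 tested genes of the 13 lists. That count was not made over all genes tested or with the offset. In the test between genotypes, 20 of the 32 with transcripts under 2000 bases were lower and 0 higher. Of the 32 with transcripts of 4000 bases or more, 5 were lower and 8 higher. In wild-type cells 56 of the 106 were higher with IFNw than with IFNL3, and 19 were lower. The genes IFI27, IFITM1 and PSMB9 below have transcripts of 725, 855 and 792 bases, and their differences are without the offset. Calls over all genes were also fewer in optimized cells (11.5% higher and 7.58% lower), so a wider gap in wild-type cells was not particular to interferon genes. IFI27 had 4199.9 and 3263 CPM with IFNw and 17.6 and 16.2 with IFNL3 in wild-type cells, so its IFNL3 libraries lay far below those of optimized cells. The log2 fold change was 7.79 there and 1.58 in optimized cells, a difference of -6.21 ± 0.24 (adjusted p = 4.0e-11). IFITM1 had 787 and 789 CPM against 52.9 and 49.1 in wild-type cells (difference -3.44 ± 0.19, adjusted p = 6.0e-09), and PSMB9 had 344 and 344 against 13.1 and 17.9 (-3.09 ± 0.24, adjusted p = 3.3e-07). EGR3 changed direction: it was higher with IFNw in wild-type cells (3.34 and 2.76 against 0.894 and 0.808 CPM) and lower in optimized cells (difference -3.19 ± 0.56, adjusted p = 9.2e-04). CYR61, a YAP target, had 28.1 and 30.1 CPM with IFNw and 233 and 222 with IFNL3 under the wild-type label. In optimized cells it had 29.7 and 30.9, then 31.8 and 31.4 (difference 2.91 ± 0.20, adjusted p = 8.0e-08). Transcript length ran with the ligand in wild-type cells too, with rho of -0.429 and -0.440 in IFNw libraries and 0.393 and 0.391 in IFNL3 libraries, and the offset left 584 genes higher and 876 lower.

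**Figure D5:**
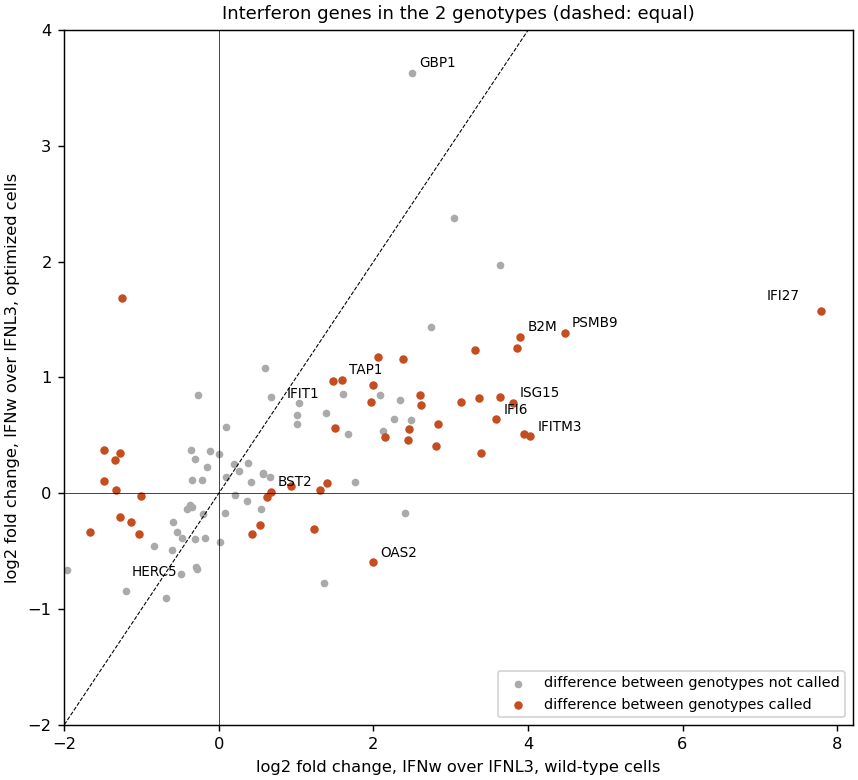
Log2 fold change of IFNw over IFNL3 in optimized cells (vertical axis) against that in wild-type cells (horizontal axis) for 106 interferon genes called higher than untreated optimized cells with either ligand. Orange points are the genes whose difference between genotypes was called, 36 lower and 11 higher in optimized cells, and most points lie nearer the horizontal than the dashed line of equal values, as for IFI27 at 7.79 and 1.58.

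With H11 in optimized cells, ISG15 had 6759 and 7526 CPM with H11, B2M 6282 and 6212, and EGR1 4.36 and 6.11, while PIAS4 had 15.9 and 17.3 with H11 against 10.7 and 13.3 with IFNw and 17.9 and 18.1 with IFNL3. These values are given side by side, with no test and without the length offset. The rho with transcript length in the H11 libraries (-0.417 and -0.427) was near that in the IFNw libraries.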

How the data were processed

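The deposited values are raw counts of reads for each amplicon target, 1 library a file, per the file headers. The submitters' processing notes name hg19. No label or header names the aligner, the counter, strand use or amplicon positions (not given in the sources used here). Of 20812 targets, 10 spike-ins (at most 1 read) were left out, and 27 of 28 gene symbols turned into dates were renamed by Entrez identifier. Libraries were grouped by genotype and treatment labels.

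All 16 libraries entered 1 fit with a coefficient per group (edgeR 4.0.16, R 4.3.3; filterByExpr, TMM, quasi-likelihood test). The Benjamini-Hochberg adjusted p threshold was 0.05 over 12704 genes. SE is the log2 fold change over the root of F. Transcript length was the longest protein-coding transcript in GENCODE 29; the offset was planned, and this choice of length was made once the files were at hand. The offset removed a spline with 5 degrees of freedom from each library. The code was tested on simulated data. DESeq2 1.42.0 was an alternative.

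The comparison, its gene lists (748 of 754 entries matched) and the named genes were chosen with earlier results of these data known. Named genes were the 15 largest folds in each direction at 5 CPM or more without overlap, up to 6 called members per list and direction, signalling, feedback, ISG15 and panel genes by level, 10 per direction in the genotype difference, and the 5 highest levels. CANX, ERAP1, DDX58, IFIH1, JUNB, DUSP4, KLF6 and the cell type markers were named after their values were seen. Some genes the rule names are not reported here.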

Additional observations from a re-analysis of the deposited data

Results flagged for a closer look

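The results here were singled out because the difference between IFNw and IFNL3 itself differed between optimized and wild-type cells in edgeR's quasi-likelihood test. It did so for 815 genes with a higher and 1262 with a lower log2 difference in optimized cells. Values are the optimized minus the wild-type log2 fold change of IFNw over IFNL3.

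Lower in optimized cells were the interferon genes IFI27 (-6.21), IFITM3 (-3.53), IFITM1 (-3.44), PSMB9 (-3.09) and IFITM2 (-3.05). Genes outside the interferon lists were SULT2B1 (-3.83), CAPN6 (-3.79), ANKRD37 (-3.50), EGR3 (-3.19) and PRRX2 (-3.13).

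Higher in optimized cells were IL7R (8.12), LTB4R2 (4.90), PI15 (4.89), CXCL14 (3.67), OSGIN1 (3.36), RPL23AP32 (3.26), AMH (3.23), PRRT2 (2.98), EMP1 (2.91) and CYR61 (2.91). IL7R had 0 reads in wild-type cells with IFNw and 136 with IFNL3, against 2 and 4 in optimized cells, so its fitted value is no bound. In 9 of these 10 genes no ligand took the level past 5 CPM in optimized cells, CYR61 being the exception.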

How the results depend on the processing

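Among 160 named genes called between the ligands, 154 stayed called in the same direction with DESeq2 size factors, 140 with DESeq2's Wald test, 152 with no low-count filter, 159 with CPM of 1 in 4 libraries, 160 with the replicate block, 84 with the length offset and 66 in all 4 fits that leave out a compared library. Replicate numbers pair nothing in the labels (r of same-numbered deviations 0.302 over 9880 genes); the replicate block gave 1816 higher and 1359 lower, and with the length offset 1123 and 763.

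The main counts were 2422 called, 1459 higher and 963 lower. They moved by over 1.5 times to 1485 called and 466 lower with only the 8 optimized libraries, to 1189, 747 and 442 with the length offset, and to 284, 201 and 83 at 2-fold. With only the 4 compared libraries 2957 were called, 1761 higher and 1196 lower. With the median transcript, chosen after seeing the data, the offset gave 1112 higher and 758 lower. Leaving out 1 library gave 1263 to 1527 called, 845 to 1086 higher and 272 to 441 lower. For the genotype difference (2077 called, 815 higher, 1262 lower), it gave 1339 to 1533, 468 to 578 and 851 to 955, and the replicate block 1120 and 1591.

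IFITM3 reversed to -0.0167 with the length offset, with or without the block. BST2 turned from 0.01 to -0.43 in both. The cause was not tested. With 2 libraries a group, a library left alone in its group takes its spread from the rest. Genes of a few reads, such as CCL20, are limited by depth.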

Other observations

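List counts in this section stand beside 11.5% of all genes tested higher with IFNw and 7.58% lower. Of 8 tested IRF1-dependent genes and chemokines 1, GBP1, was higher with IFNw, with a list median of 0.63 (0.43 with the offset). Of 9 NF-kappaB targets 2 were lower, NFKB1 and CCL20, with a median of -0.38 (-0.57 with the offset, 1 lower), and 0 were lower without replicate 2 of either ligand. Of 9 cell death and growth arrest genes 1 was higher: BID, a death agonist of the BCL2 family, had 14.1 and 16.1 against 5.91 and 9.04 CPM (1.02 ± 0.28). The median was 0.37 (0.21 with the offset), and 0 were called without IFNL3 replicate 1 or IFNw replicate 2.

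Of 32 glycolysis and hypoxia genes 1 was higher, TXNIP, an arrestin that limits glucose uptake (33.6 and 35.4 against 22.7 and 22.9 CPM; 0.60 ± 0.17), and 1 lower, HK2, a hexokinase (35.1 and 34.03 against 46.95 and 73.8; -0.80 ± 0.19). Neither gene overlapped between the ligands. TXNIP lost its call without IFNw replicate 2 or either IFNL3 library (0.59 to 0.63), and HK2 without replicate 2 of either ligand (-0.75 and -0.44) and with the offset (-0.58). Of 18 p53 targets 2 were higher, BBC3 and DDB2, and 2 lower, MDM2 and XPC, against 11.5% and 7.58% of all genes. The list median was 0.09, and 0 were called with the offset. Each of these named p53 targets lost its call without at least 3 of the 4 libraries in turn. Of 21 heat shock genes 1 was higher: HSPE1, a mitochondrial co-chaperone, had 516 and 696 CPM untreated, 1618 and 1651 with IFNw and 784 and 823 with IFNL3 (1.02 ± 0.13, adjusted p = 7.7e-05; 0.56 with the offset). HSPA4, HSPA4L and CHORDC1 were lower, by -0.61 to -0.46, and the list median was -0.22. HSPA4 kept its call in each of these fits, while HSPA4L and CHORDC1 lost it with the offset (-0.10 and -0.38), HSPA4L without either IFNw library or IFNL3 replicate 2, and CHORDC1 without any 1 of the 4.

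ID1, a target of BMP signalling, had 35.9 and 38.6 CPM with IFNw against 20.4 and 22.3 with IFNL3 in optimized cells (0.80 ± 0.16), and a log2 fold change of -1.95 in wild-type cells. It was called in each fit without a library, and at 0.42 was not called with the offset.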
